A study of Sorghum bicolor with 18 samples.

Results

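NAC proteins are a plant-specific family of transcription factors that bind DNA through a conserved domain at their N terminus. The family takes its name from 3 founding groups of genes, NAM, ATAF and CUC. In Arabidopsis some members switch on vessel and fibre programmes, some draw the boundaries between organs and the meristem, and others act in wounding, drought, senescence or DNA damage. In an axillary bud, CUC-type members are known from several species for marking the boundary in which the bud forms. The sorghum members were taken from the annotation: a gene counted if its title named the NAC domain or a NAC-like or NAC transcription factor, or if its symbol held an ANAC or NAC number. That rule found 124 of 34211 genes. The titles gave 115 of them and the symbols 122, with 113 found by both. They match 56 Arabidopsis genes, so that several sorghum genes often share a name, and each is given here with its sorghum identifier. Gene names and roles are those of the best-matching Arabidopsis gene, and the sorghum proteins may act otherwise.

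The study followed RNA in the first axillary bud of sorghum (Sorghum bicolor, cultivar 100M) when the leaf over it was taken off. Leaf-removed plants had the coleoptile and first leaf peeled away 7 days after sowing, which uncovered the bud, while intact plants kept both. Buds were collected 1, 3 and 6 h later, as 4 pools of 15 buds for each treatment and time, and the 3 pools with the best RNA were sequenced. The 18 libraries thus fall into 6 groups of 3, with an intact group at each time.

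The libraries held 21.4 to 45.8 M exon reads (M stands for 1e6; median 28.7), of which 97.0 to 97.6% mapped to 1 place. Levels are given as CPM (exon counts scaled to library size) between samples, and as the authors' RPKM, which also divides by exon length, where genes are compared with each other. A gene is called when its Benjamini-Hochberg adjusted p from edgeR's quasi-likelihood test is under 0.05, adjusted over all 21852 genes tested, and every adjusted p and every fold change with its standard error (SE) comes from that fit unless another is named. The replicates are pools of buds, so p-values measure the spread between pools. A level in a whole bud cannot tell more RNA per cell from more cells of a type, and this holds for every gene below. A group of 5 libraries deviated from their group means in the same direction, namely leaf-removed 1 h d, 3 h b and 6 h d and intact 1 h c and 6 h d. Their reads lay in introns at 4.65 to 7.23%, against 3.12 to 4.82% in the other 13 libraries. Their part in the results was not tested, and the main counts are therefore given with and without these 5 libraries.

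Of the 124 members, 74 had enough reads to be tested. The other 50 are nearly silent in these buds: 14 had no read in any library, 17 had 1 to 9 reads over all 18 libraries, and 19 had 10 to 96 reads. Among the silent or nearly silent ones were RD26, a drought-response factor, with 5 reads in all, all 3 genes matched to ANAC042 (JUB1, a longevity factor) with 0, 0 and 12 reads, and the ANAC059 match with no read. The filter acts on any group, and 68 of the 74 tested members reached its cutoff of 0.349 CPM in at least 3 intact libraries, while 6 did not.

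At 1 h the family as a whole took a larger share of the reads after leaf removal. Member genes took 0.306 to 0.323% of exon reads in leaf-removed buds, against 0.151 to 0.168% in intact buds. At 3 h the shares were 0.153 to 0.184% in leaf-removed buds, against 0.144 to 0.157% in intact buds, so that the groups overlapped. At 6 h the order was the other way, with 0.114 to 0.130% in leaf-removed buds, against 0.140 to 0.172% in intact buds. The summed RPKM over all 124 members averaged 1272 in leaf-removed buds and 582 in intact buds at 1 h. The averages at 3 h were 634 in leaf-removed and 573 in intact buds, and those at 6 h were 477 in leaf-removed and 601 in intact buds. A few genes made most of that sum. ANAC103, matched to an Arabidopsis factor of the unfolded protein response in the endoplasmic reticulum, had the highest RPKM of the family in each of the 6 groups. It made 24.9% of the summed RPKM in leaf-removed buds and 43.5% in intact buds at 1 h, while ANAC025 and an ATAF2 match stood at 20.2% and 14.9% of the sum in leaf-removed buds.

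**Figure D1:**
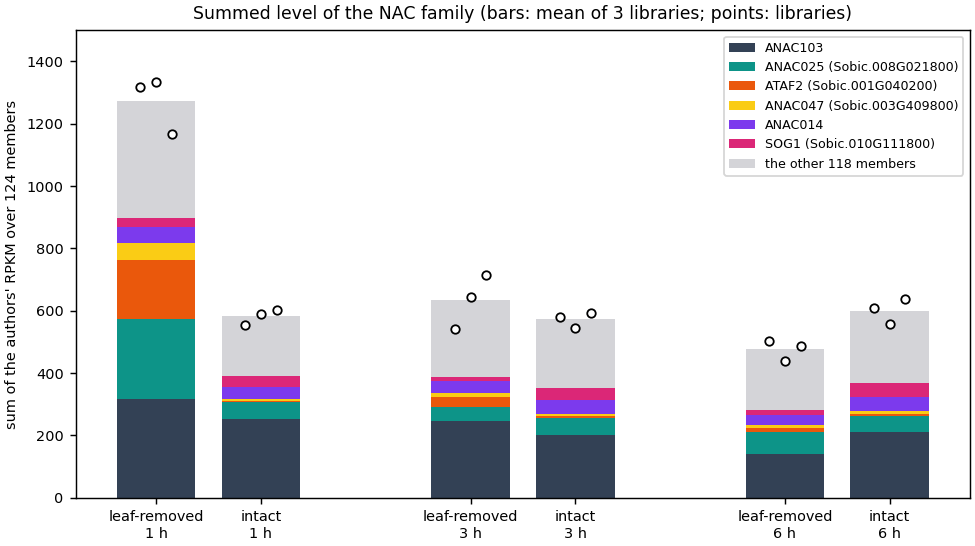
Sum of the authors' RPKM over the 124 NAC members in each group, as stacked bars of the mean of 3 libraries with 6 genes coloured, and the sum in each library as open points. The bar of leaf-removed buds at 1 h reaches 1272, against 582 in intact buds, while at 6 h the leaf-removed bar of 477 stands below the intact bar of 601.

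At 1 h, 40 of the 74 tested members were called, 31 higher and 9 lower in leaf-removed buds. That is 54.1% of them, beside 48.9% of all tested genes. 41.9% of tested members were higher, beside 24.8% of all genes, and 12.2% were lower, beside 24.1% of all genes. At 3 h, 21 were called, 15 higher and 6 lower, or 28.4% beside a background of 34.0%, and at 6 h 20 were called, 9 higher and 11 lower, or 27.0% beside 34.0%. The members' shares at the 2 later times lie below the background and say nothing particular of the family. The median log2 fold change over tested members was 0.63, 0.31 and 0.15 at 1, 3 and 6 h, where that of all tested genes was -0.01, 0.00 and -0.03. Without the 5 deviating libraries the calls were 31 higher and 9 lower at 1 h (54.0% of all genes called), 24 higher and 5 lower at 3 h (47.0%) and 12 higher and 13 lower at 6 h (42.2%). Of the 40 calls at 1 h, 36 remained in that smaller fit, all in the same direction.

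The split depends on the scaling. When scaled by library totals alone, without TMM factors, all genes had a median that moved to -0.25, -0.12 and -0.21 at the 3 times, and the members called were 27 higher and 13 lower, 12 higher and 9 lower, and 8 higher and 17 lower. Of all genes called under that scaling, 36.5%, 40.6% and 33.1% were higher at the 3 times, where TMM factors gave 50.8%, 52.4% and 53.1%. No member called under both scalings turned its direction.

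**Figure D2:**
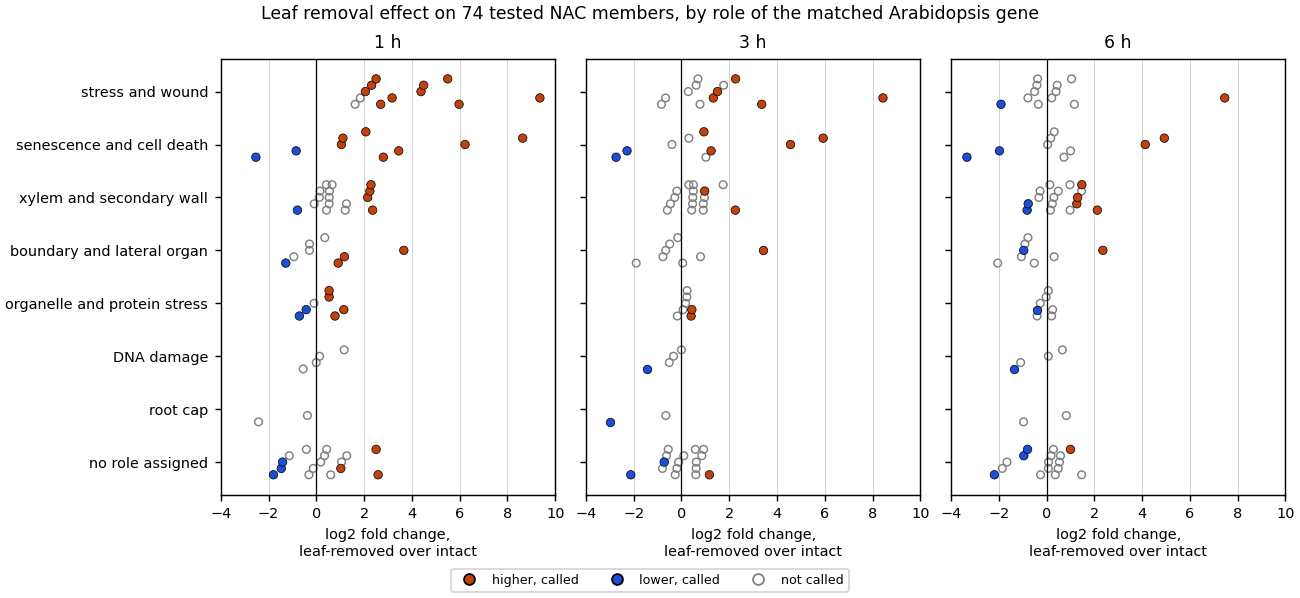
Log2 ratio of leaf-removed to intact buds for the 74 tested members at 1, 3 and 6 h, in rows by the role of the matched Arabidopsis gene, with filled points for called genes and open points for the rest. The stress row lies wholly right of 0 at 1 h, with 10 of its 12 genes called higher, and has spread to both sides by 6 h.

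Members matched to stress and wound factors rose together at 1 h, and their median was the highest of the role groups. Of 12 tested, 10 rose at 1 h and none fell. At 3 h 5 rose and none fell, and at 6 h 1 rose and 1 fell. Calls made up 83.3%, 41.7% and 16.7% of these members at the 3 times, beside 48.9%, 34.0% and 34.0% of all genes. Their median log2 fold change was 2.93 at 1 h, 1.05 at 3 h and -0.06 at 6 h. Without the 5 libraries the counts were 11 higher at 1 h, 8 higher at 3 h, and 3 higher and 1 lower at 6 h. The 2 that were not called at 1 h with all libraries were an ANAC036 match (Sobic.001G515800, log2 1.83 ± 0.83 SE, adjusted p = 0.0799) and an ANAC047 match (Sobic.003G105800, log2 1.62 ± 0.88 SE, adjusted p = 0.143). The shares above also count members that passed the filter only through leaf-removed libraries, such as an ATAF1 match (Sobic.009G142200). Shares without such members were not computed, and the roles were chosen with earlier results of these data known.

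ATAF2 (Sobic.001G040200) is matched to a wound-induced factor that also acts in senescence and hormone breakdown. It had 520.1, 464 and 217 CPM in leaf-removed buds at 1 h, against 6.95, 3.86 and 8.33 CPM in intact buds. The lowest leaf-removed library, one of the 5 that deviate, was still far above every intact one. The gene was 62.8-fold higher (log2 5.97 ± 0.63 SE, adjusted p = 1.37e-06). At 3 h it had 15.6, 54.8 and 109.5 CPM in leaf-removed buds, against 9.49, 15.0 and 12.9 CPM in intact buds, a log2 fold change of 2.26 ± 0.54 SE (adjusted p = 0.00414). The deviating library b was the low one, just above the intact range. At 6 h the values of 32.4, 20.9 and 23.2 CPM in leaf-removed buds, against 7.36, 17.6 and 9.19 CPM in intact buds, did not overlap, but the gene was not called (log2 1.16 ± 0.53 SE, adjusted p = 0.102). It was called at 6 h without the 5 libraries (log2 1.08 ± 0.36 SE, adjusted p = 0.0248). By RPKM it was the third most abundant member of leaf-removed buds at 1 h, with a mean of 189, against 3.53 in intact buds.

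A second ATAF2 match (Sobic.003G334600) moved both ways. It had 47.0, 51.4 and 24.3 CPM in leaf-removed buds at 1 h, against 6.28, 4.19 and 8.54 CPM in intact buds, and rose 6.45-fold (log2 2.69 ± 0.52 SE, adjusted p = 0.000457). At 6 h it had 3.85, 2.15 and 1.86 CPM in leaf-removed buds, against 8.60, 12.3 and 8.69 CPM in intact buds, and was lower (log2 -1.91 ± 0.52 SE, adjusted p = 0.0105). The groups did not overlap at either time, and they lay in opposite order. At 3 h the log2 fold change was -0.84 ± 0.50 SE and was not called (adjusted p = 0.217).

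Both tested genes matched to ATAF1, a factor of drought, abscisic acid and wound responses, rose at 1 h. ATAF1 (Sobic.003G379700) had 96.6, 106 and 51.0 CPM in leaf-removed buds, against 2.92, 3.36 and 4.97 CPM in intact buds, and rose 22.5-fold (log2 4.49 ± 0.52 SE, adjusted p = 3.73e-06). By 3 h the leaf-removed values of 3.30, 14.2 and 24.0 CPM lay on both sides of the intact values of 8.72, 8.89 and 9.43 CPM. The effect was not called at 3 h (log2 0.61 ± 0.46 SE, adjusted p = 0.335) or 6 h (log2 -0.34 ± 0.46 SE, adjusted p = 0.6). With the 5 libraries left out it was called at 3 h (log2 1.08 ± 0.25 SE, adjusted p = 0.00253). The effect at 6 h was lower than that at 1 h by a log2 difference of -4.84 ± 0.68 SE (adjusted p = 4.74e-05), a test of the difference itself.

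The other ATAF1 match (Sobic.009G142200) was close to silent in intact buds. At 1 h it had 55.5, 68.5 and 41.2 CPM in leaf-removed buds, against 0.0320, 0.0551 and 0.151 CPM in intact buds (log2 9.36 ± 0.70 SE, adjusted p = 3.6e-08), the largest fold change of any member. At 3 h it had 4.43, 13.2 and 22.4 CPM in leaf-removed buds, against 0.110, 0 and 0 CPM in intact buds. With only 3 reads over the intact group the ratio was 379, with a 95% counting interval of 129 to 1842. At 6 h it had 5.93, 4.66 and 4.53 CPM in leaf-removed buds, against 0.0426, 0.0366 and 0 CPM in intact buds, a ratio of 208 on 2 intact reads (interval 57.1 to 1719). It was higher at all 3 times, and these intervals cover counting error only.

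ANAC032, ANAC102, ANAC071 and ANAC036 are linked in Arabidopsis to stress and senescence, low oxygen, rejoining of cut stem tissue and restricted growth in that order. ANAC032 (Sobic.005G064600) had 31.2, 29.5 and 7.71 CPM in leaf-removed buds at 1 h, against 0.897, 0.110 and 0.515 CPM in intact buds (log2 5.50 ± 0.82 SE, adjusted p = 4.51e-05). Library d, one of the 5, was well below the other leaf-removed libraries but stood above every intact one. ANAC102 (Sobic.002G080100) had 100.2, 102 and 61.3 CPM in leaf-removed buds, against 16.4, 11.9 and 18.2 CPM in intact buds, and rose 5.65-fold (log2 2.50 ± 0.47 SE, adjusted p = 0.000393). ANAC071 (Sobic.001G290400) had 6.25, 8.25 and 2.51 CPM in leaf-removed buds, against 0.160, 0.248 and 0.394 CPM in intact buds (log2 4.38 ± 0.78 SE, adjusted p = 0.000228). None of these 3 was called at 3 h or 6 h with all libraries. Without the 5 libraries, ANAC032 (log2 2.20 ± 0.46 SE, adjusted p = 0.00126) and ANAC102 (log2 1.24 ± 0.26 SE, adjusted p = 0.00114) were called at 3 h and ANAC071 was not. An ANAC036 match (Sobic.008G142100), of which only 83.2% of reads were unique, had 0.393, 1.01 and 0.295 CPM in leaf-removed buds at 1 h, against 0.0961, 0.110 and 0.121 CPM in intact buds (log2 2.31 ± 0.76 SE, adjusted p = 0.0198). Leaving out any 1 of 4 libraries ended that call, and without leaf-removed 1 h c its log2 fold change was 1.54. Its adjusted p ran to at most 0.156 over 27 alternatives. The call at 3 h rested on 33 reads in leaf-removed buds and 3 in intact buds, a ratio of 11.5 with a 95% counting interval of 3.62 to 58.8 (adjusted p = 0.00974).

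ANAC047 (Sobic.003G409800) is matched to a factor that drives leaf movement in waterlogged Arabidopsis. It had 304, 312 and 257 CPM in leaf-removed buds at 1 h, against 36.1, 23.1 and 37.9 CPM in intact buds, and rose 9.0-fold (log2 3.17 ± 0.24 SE, adjusted p = 4.21e-08). At 3 h it had 47.4, 78.2 and 81.6 CPM in leaf-removed buds, against 30.0, 27.5 and 24.8 CPM in intact buds, and was 2.52-fold higher (log2 1.33 ± 0.23 SE, adjusted p = 0.000299). At 6 h the groups overlapped and it was not called (log2 0.45 ± 0.22 SE, adjusted p = 0.137). A second ANAC047 match (Sobic.003G254900), at 2.55, 3.19 and 2.10 CPM in leaf-removed buds at 1 h, against 0.641, 0.248 and 0.999 CPM in intact buds, was called at 1 h (log2 2.05 ± 0.52 SE) and at 3 h (log2 1.51 ± 0.53 SE, adjusted p = 0.038). Its 3 h call ended when intact 3 h b or c or leaf-removed 3 h c or d was left out, with adjusted p up to 0.184 over 30 alternatives and a log2 fold change of 1.05 without leaf-removed 3 h d.

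**Figure D3:**
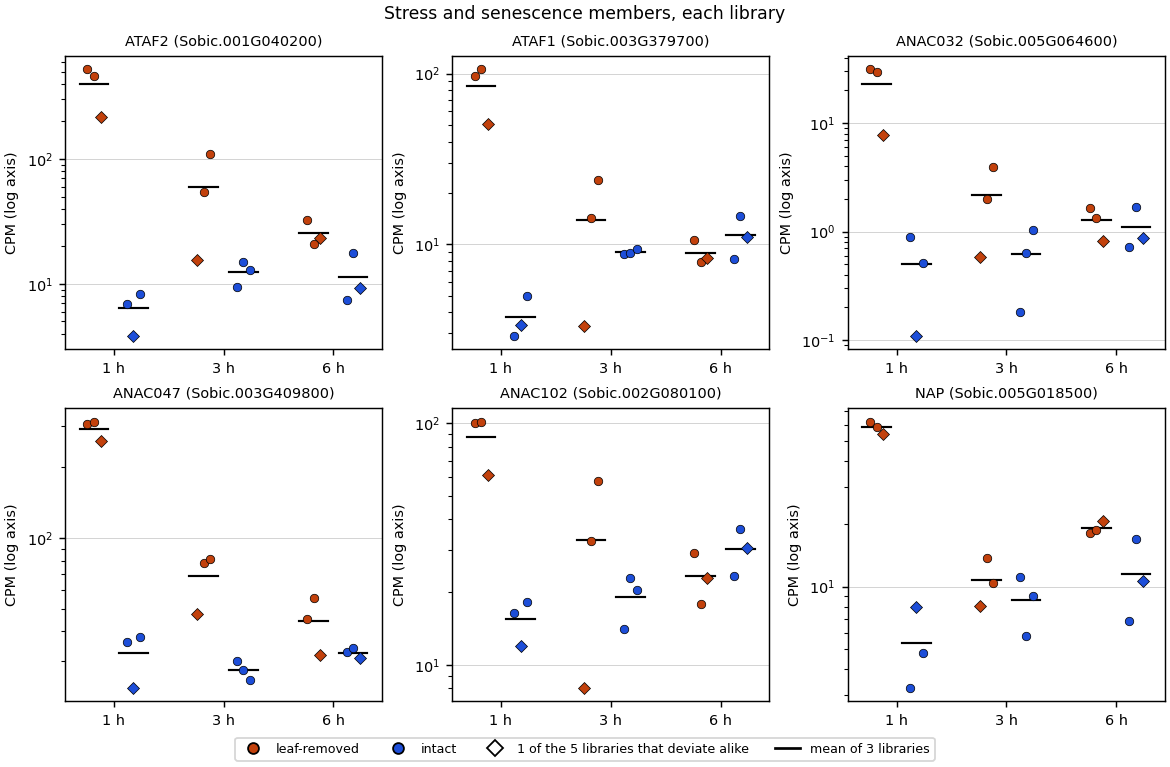
CPM on a log axis in each library for 5 members matched to stress factors and for NAP, at 1, 3 and 6 h, leaf-removed left of intact at each time, with bars at the mean of 3 libraries and diamonds for the 5 libraries that deviate alike. At 1 h every leaf-removed point lies above every intact point, and at 6 h the groups meet for all but ATAF2 and NAP.

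Members matched to senescence and cell death factors also rose, with exceptions. Of 9 tested, 7 rose and 2 fell at 1 h, 4 rose and 2 fell at 3 h, and 2 rose and 2 fell at 6 h, with medians of 2.07, 0.94 and 0.32. Calls made up 100%, 66.7% and 44.4% of this small group, beside 48.9%, 34.0% and 34.0% of all genes. These shares count an ANAC087 match (Sobic.003G105600) without a read in intact buds, which passed the filter only through leaf-removed libraries. NAP (Sobic.005G018500), matched to a driver of leaf senescence, had 62.2, 58.7 and 54.4 CPM in leaf-removed buds at 1 h, against 3.27, 7.96 and 4.81 CPM in intact buds. It rose 10.9-fold (log2 3.45 ± 0.36 SE, adjusted p = 1.04e-06). At 3 h the leaf-removed values of 8.11, 13.7 and 10.4 CPM overlapped the intact values of 11.2, 5.78 and 9.05 CPM, and it was not called (log2 0.31 ± 0.33 SE, adjusted p = 0.508). At 6 h it had 18.02, 18.6 and 20.6 CPM in leaf-removed buds, against 6.85, 17.0 and 10.7 CPM in intact buds, without overlap and without a call (log2 0.73 ± 0.33 SE, adjusted p = 0.0992). The effect at 3 h was lower than that at 1 h by -3.13 ± 0.47 on the log2 scale (adjusted p = 0.000154).

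There are 4 tested genes that match ANAC087, a factor of programmed cell death in the Arabidopsis root cap, and all 4 rose at 1 h. ANAC087 (Sobic.005G018700) had 10.5, 11.2 and 8.27 CPM in leaf-removed buds at 1 h, against 0.160, 0.138 and 0.0908 CPM in intact buds (log2 6.22 ± 0.66 SE, adjusted p = 1.31e-06). It had 4.46, 9.87 and 16.2 CPM at 3 h in leaf-removed buds, against 0.769, 0.488 and 0.0580 CPM in intact buds (log2 4.57 ± 0.58 SE). The values at 6 h were 7.91, 9.11 and 4.77 CPM in leaf-removed buds, against 0.426, 0.366 and 0.441 CPM in intact buds (log2 4.13 ± 0.58 SE, adjusted p = 5.99e-05). The folds were 74.7, 23.7 and 17.6 at the 3 times, and the difference between the effects at 6 h and 1 h was not called (log2 -2.09, adjusted p = 0.0662). A second copy (Sobic.003G105600) had 2.40, 1.93 and 0.849 CPM in leaf-removed buds at 1 h and no read in any intact library at any time. Against a floor of 3 reads over the intact group it was at least 56.7-fold higher at 1 h, at least 7.70-fold higher at 3 h and at least 3.36-fold higher at 6 h. Its 6 h call rests on 11 reads and ended without leaf-removed 6 h a (adjusted p = 0.0609) and without the 5 libraries (adjusted p = 0.0547), with adjusted p up to 0.211 over 28 alternatives. Another copy (Sobic.001G386000) had 81.8, 85.7 and 47.9 CPM in leaf-removed buds at 1 h, against 12.3, 3.88 and 14.7 CPM in intact buds (log2 2.80 ± 0.54 SE, adjusted p = 0.000447). It was not called later with all libraries, but was at 3 h without the 5 (log2 1.47 ± 0.16 SE, adjusted p = 4.41e-06). The fourth (Sobic.002G421400) reached log2 1.11 ± 0.37 SE at 1 h (adjusted p = 0.0201), a call that leaving out any 1 of 4 libraries ended, with a log2 fold change of 0.89 without intact 1 h c and adjusted p up to 0.0943 over 30 alternatives.

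There are 3 tested genes that match ANAC074, a factor of the death of stigma cells in Arabidopsis, and they went in different directions. ANAC074 (Sobic.006G147400) had 2.59, 2.08 and 1.11 CPM in leaf-removed buds at 1 h, against 0.673, 0.275 and 0.424 CPM in intact buds (log2 2.07 ± 0.60 SE, adjusted p = 0.00925). The values at 3 h were 0.0646, 0.223 and 0.265 CPM in leaf-removed buds, against 1.10, 0.938 and 0.667 CPM in intact buds (log2 -2.28 ± 0.66 SE, adjusted p = 0.0139). Its levels at 6 h were 0.180, 0.0242 and 0.0955 CPM in leaf-removed buds, against 0.596, 1.79 and 0.567 CPM in intact buds (log2 -3.34 ± 0.72 SE, adjusted p = 0.00207). The groups did not overlap at any time, above at 1 h and below afterwards. Its 1 h call ended without leaf-removed 1 h b (log2 1.70) and its 3 h call without leaf-removed 3 h b (log2 -1.86), with adjusted p up to 0.0531 and 0.0854 over 29 alternatives each. A second copy (Sobic.004G219500) was lower at all 3 times, with log2 fold changes of -2.54 ± 0.58, -2.74 ± 0.56 and -1.97 ± 0.54 SE (adjusted p = 0.00186, 0.00135 and 0.0104). The last of these calls ended without intact 6 h c, where the value was -1.28 and adjusted p ran to at most 0.144 over 30 alternatives. The third copy (Sobic.004G338800) was higher at 1 h (log2 1.05 ± 0.39 SE, adjusted p = 0.0342) and 3 h (log2 1.24 ± 0.38 SE, adjusted p = 0.0179). Leaving out any 1 of 9 libraries ended its 1 h call and any 1 of 3 its 3 h call, with log2 fold changes of 0.68 without intact 1 h d and 0.88 without leaf-removed 3 h d and adjusted p up to 0.185 and 0.389. The 1 h call was also lost without the 5 libraries (log2 0.92, adjusted p = 0.125).

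ANAC061 (Sobic.009G120600), close kin of an Arabidopsis repressor of senescence, was the member that went down first and up later. It had 3.93, 3.38 and 3.88 CPM in leaf-removed buds at 1 h, against 5.93, 7.13 and 7.12 CPM in intact buds (log2 -0.85 ± 0.20 SE, adjusted p = 0.00216). Its levels at 3 h were 5.33, 5.92 and 4.80 CPM in leaf-removed buds, against 2.93, 3.34 and 2.12 CPM in intact buds (log2 0.94 ± 0.20 SE, adjusted p = 0.00192). At 6 h the groups overlapped (log2 0.18 ± 0.20 SE, adjusted p = 0.529). Its level also differed among the 3 times in intact buds (adjusted p = 0.000891), and the intact values were highest at 1 h. The effect at 3 h exceeded that at 1 h by 1.79 ± 0.28 on the log2 scale (adjusted p = 0.000223).

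A list of senescence genes taken by annotation had 34 tested genes. Of these, 19 rose and 2 fell at 1 h, while 10 rose and 3 fell at 3 h, and 5 rose and 9 fell at 6 h, with median log2 fold changes of 0.89, 0.27 and 0.15. Among all 21852 tested genes, 24.8% rose and 24.1% fell at 1 h, and 17.8% rose and 16.2% fell at 3 h. At 6 h 3943 of them rose and 3478 fell. The difference between the list and all genes was not tested.

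Members matched to xylem and secondary wall factors were called less often than the stress members at 1 h, a difference that was not tested. Of 16 tested, 4 rose and 1 fell at 1 h, 2 rose and none fell at 3 h, and 4 rose and 2 fell at 6 h, with medians of 0.54, 0.48 and 0.40. Those called made up 31.25%, 12.5% and 37.5%, beside 48.9%, 34.0% and 34.0% of all genes. The shares are thus below the background at 1 h and 3 h and near it at 6 h. In the fit without the 5 libraries the counts were 5 and 1, 6 and 0, and 4 and 2. VND factors switch on the vessel programme and NST1 that of fibres. VND4 (Sobic.006G160900) was the steady one, with 2.24, 2.22 and 1.59 CPM in leaf-removed buds at 1 h, against 0.481, 0.303 and 0.575 CPM in intact buds. It had 1.45, 1.30 and 1.74 CPM at 3 h in leaf-removed buds, against 0.256, 0.450 and 0.232 CPM in intact buds, and 1.40, 1.45 and 0.955 CPM at 6 h, against 0.255, 0.293 and 0.315 CPM in intact buds. The groups did not overlap at any time, and the log2 fold changes were 2.15 ± 0.35, 2.26 ± 0.37 and 2.13 ± 0.37 SE (adjusted p = 0.000111, 0.000195 and 0.000402).

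A second VND4 match (Sobic.004G302400) had 7.66, 8.30 and 5.31 CPM in leaf-removed buds at 1 h, against 1.19, 2.01 and 1.15 CPM in intact buds (log2 2.28 ± 0.44 SE, adjusted p = 0.000419). Only 42.8% of its reads mapped to 1 place, so its reads may belong in part to a near copy. It was called again at 6 h (log2 1.48 ± 0.44 SE, adjusted p = 0.0161), a call that ended without intact 6 h a (log2 1.27), with adjusted p at most 0.0683 over 30 alternatives. NST1 (Sobic.010G022400) had 3.62, 4.10 and 2.66 CPM in leaf-removed buds at 1 h, against 0.577, 0.551 and 1.06 CPM in intact buds (log2 2.24 ± 0.47 SE, adjusted p = 0.00101). It was not called later with all libraries and was called at 3 h and 6 h without the 5 (log2 1.31 ± 0.31 and 1.12 ± 0.35 SE, adjusted p = 0.0027 and 0.0187). The other NST1 match (Sobic.007G018100) had its calls late, with a log2 fold change of 0.97 ± 0.34 SE at 3 h (adjusted p = 0.037) and 1.30 ± 0.34 SE at 6 h (adjusted p = 0.00804). Its 3 h call ended without intact 3 h c (log2 0.69) or leaf-removed 3 h c or d, and under library totals, with adjusted p up to 0.204 over 30 alternatives. VND1 (Sobic.001G522700) was higher at 6 h (log2 1.27 ± 0.44 SE, adjusted p = 0.0343), a call lost in 11 of 29 alternatives, among them the fit without the 5 libraries (log2 1.09, adjusted p = 0.107), with adjusted p from 0.0151 to 0.226. It was also lost when intact 6 h c or d or leaf-removed 6 h a or d was left out, and without leaf-removed 6 h a its log2 fold change was 1.02.

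XND1 and VNI2 hold back xylem formation in Arabidopsis, and the 2 tested XND1 matches differed. XND1 (Sobic.006G086000) had 2.16, 1.93 and 1.73 CPM in leaf-removed buds at 1 h, against 0.385, 0.441 and 0.303 CPM in intact buds (log2 2.35 ± 0.72 SE, adjusted p = 0.0132). XND1 (Sobic.004G176600) had 2.79, 2.46 and 1.62 CPM in leaf-removed buds at 1 h, against 3.78, 2.97 and 5.18 CPM in intact buds (log2 -0.80 ± 0.26 SE, adjusted p = 0.0201). The first rose and the second fell, neither with overlap at 1 h, and the second fell again at 6 h (log2 -0.81 ± 0.26 SE, adjusted p = 0.0228). Without intact 1 h d neither 1 h call held (log2 2.13 and -0.65, adjusted p up to 0.0545 and 0.106 over 29 and 30 alternatives), and leaving out leaf-removed 1 h d also ended that of the second gene (log2 -0.68). Its 6 h call ended without any 1 of intact a or c or leaf-removed a or d, with -0.71 without intact a and adjusted p up to 0.203. VNI2 (Sobic.008G094700) fell at 6 h, with 10.6, 10.4 and 11.5 CPM in leaf-removed buds, against 17.1, 21.0 and 17.2 CPM in intact buds (log2 -0.77 ± 0.24 SE, adjusted p = 0.0227). That call ended without intact 6 h c (log2 -0.64) or leaf-removed 6 h a or b, with adjusted p up to 0.201 over 30 alternatives. The tested matches to SND2, VND2, VND7, ANAC075 and the third VND4 (Sobic.010G002900) were called at no time with all libraries.

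Genes taken by annotation for wall synthesis (cellulose synthases, laccases, fasciclin-like proteins, wall MYBs) were followed beside these factors. The list is not confined to secondary walls, since it took in every title of the cellulose synthase family. It includes matches to CESA3. At 1 h these averaged 477 CPM in leaf-removed and 186 CPM in intact buds (Sobic.002G075500), and 421 and 258 CPM (Sobic.001G045700). Of 49 tested, 20 rose and 2 fell at 1 h, 8 rose and 3 fell at 3 h, and 6 rose and 5 fell at 6 h, with medians of 0.71, 0.34 and 0.18. Their summed level was 1823 to 2179 CPM in leaf-removed buds, against 1239.9 to 1328 CPM in intact buds at 1 h, 1401 to 1708 CPM against 1344 to 1426 CPM at 3 h, and 1189 to 1377 CPM against 1276 to 1391 CPM at 6 h. Part of that sum lies in the CESA3 matches, so it does not measure secondary walls or stem and vascular tissue alone. Of the 86 listed, 12 had no read. Knotted-like homeobox genes, which mark the meristem, were read in every group, with none of 8 at 0, and summed to 81.3 to 132 CPM in leaf-removed buds, against 121 to 172 CPM in intact buds at 1 h. Their sums were 128 to 149.7 CPM in leaf-removed buds, against 121 to 136 CPM in intact buds at 3 h, and 77.6 to 154 CPM in leaf-removed buds, against 108 to 187 CPM in intact buds at 6 h. Of 7 tested, 2 fell at 1 h, none was called at 3 h and 2 fell at 6 h, with medians of 0.07, 0.03 and -0.29. Photosystem and light-harvesting genes summed to 3451 to 5481 CPM in leaf-removed buds, against 2372 to 5577 CPM in intact buds at 1 h, with 13 of 82 at 0. Their sums were 3562 to 6516 CPM in leaf-removed buds, against 6161 to 10030.2 CPM in intact buds at 3 h, and 3488 to 6759.8 CPM in leaf-removed buds, against 5422 to 8344 CPM in intact buds at 6 h. Of 61 tested, 5 rose and 3 fell at 1 h, 4 rose and 8 fell at 3 h, and 8 rose and 3 fell at 6 h, with medians of 0.13, -0.37 and -0.08. Beside the wall, knotted-like and photosystem lists, 24.8% of all 21852 tested genes rose and 24.1% fell at 1 h. The shares of all genes were 17.8% higher and 16.2% lower at 3 h. At 6 h 3943 of all tested genes rose and 3478 fell. No list was tested against all genes. The part of tissue makeup in the members' values was not tested.

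**Figure D4:**
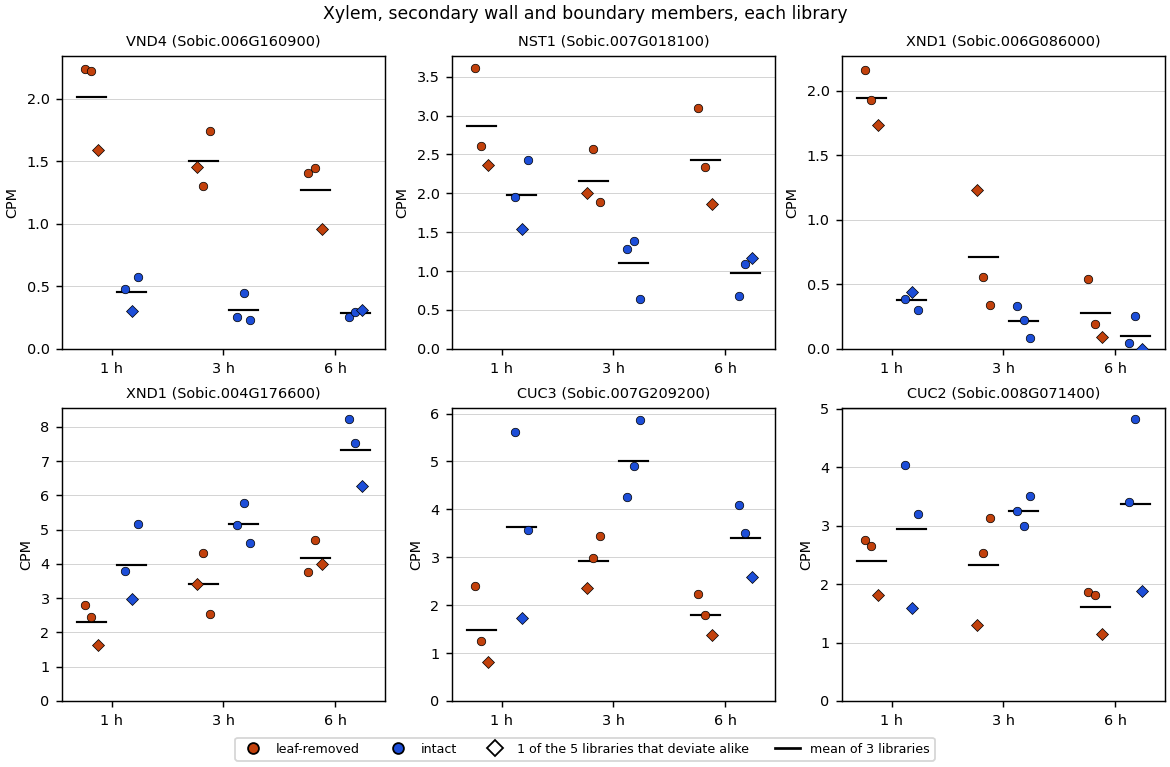
CPM in each library for 4 members matched to xylem factors and for CUC3 and CUC2, at 1, 3 and 6 h, leaf-removed left of intact at each time, with bars at the mean of 3 libraries and diamonds for the 5 libraries that deviate alike. VND4 (Sobic.006G160900) lies above its intact libraries at all 3 times, while leaf-removed CUC3 lies below intact at 3 h and 6 h and overlaps with it at 1 h.

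Members matched to boundary factors and their kin went both ways. Of 8 tested, 3 rose and 1 fell at 1 h, 1 rose at 3 h, and 1 rose and 1 fell at 6 h, with median log2 fold changes of 0.03, -0.32 and -0.84. Those called made up 50%, 12.5% and 25%, beside 48.9%, 34.0% and 34.0% of all genes. The counts are thus near the background at 1 h and below it later. With the 5 libraries left out, 3 of the 8 fell at 6 h. CUC3 (Sobic.007G209200), whose Arabidopsis match keeps organs apart and is needed for axillary meristems, had 2.40, 1.25 and 0.812 CPM in leaf-removed buds at 1 h, against 5.61, 1.74 and 3.57 CPM in intact buds. The lowest intact value was library c, one of the 5, and the groups overlapped there. It fell to 41.0% of the intact level (log2 -1.28 ± 0.41 SE, adjusted p = 0.017). The values at 3 h were 2.36, 2.98 and 3.44 CPM in leaf-removed buds, against 4.25, 4.91 and 5.86 CPM in intact buds, and at 6 h 2.23, 1.79 and 1.38 CPM, against 4.09, 3.51 and 2.58 CPM in intact buds. Those groups did not overlap, yet neither was called (log2 -0.78 ± 0.40 SE, adjusted p = 0.15, and log2 -0.91 ± 0.41 SE, adjusted p = 0.099). The 1 h call ended without intact 1 h b (log2 -0.91) or leaf-removed 1 h d (log2 -1.07), with adjusted p from 0.000274 to 0.0884 over 30 alternatives. Without the 5 libraries CUC3 was called at 1 h (log2 -1.31 ± 0.33 SE, adjusted p = 0.0036) and 6 h (log2 -0.92 ± 0.32 SE, adjusted p = 0.033). CUC2 (Sobic.008G071400) had 1.87, 1.81 and 1.15 CPM in leaf-removed buds at 6 h, against 3.41, 4.83 and 1.89 CPM in intact buds, and was not called at any time with all libraries (at 6 h log2 -1.05 ± 0.41 SE, adjusted p = 0.0553). It was called at 6 h without the 5 libraries (log2 -1.16 ± 0.27 SE, adjusted p = 0.00318).

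NAC1 carries auxin signals in lateral root formation of Arabidopsis, and 4 tested genes match it. NAC1 (Sobic.007G071000) had 4.17, 6.80 and 4.76 CPM in leaf-removed buds at 1 h, against 3.01, 2.67 and 2.66 CPM in intact buds (log2 0.91 ± 0.21 SE, adjusted p = 0.00178). The values at 6 h were 2.09, 1.91 and 1.72 CPM in leaf-removed buds, against 3.45, 4.10 and 3.56 CPM in intact buds (log2 -0.96 ± 0.21 SE, adjusted p = 0.00256). It thus rose first and fell later, without overlap at either time. A second match (Sobic.008G164800) rose at 1 h, with 2.91, 2.85 and 2.84 CPM in leaf-removed buds, against 1.47, 1.10 and 1.24 CPM in intact buds (log2 1.17 ± 0.35 SE, adjusted p = 0.0106). The other 2 (Sobic.006G118200 and Sobic.010G227300) were not called. ANAC100 (Sobic.004G191700), whose Arabidopsis match is a target of the microRNA that also silences CUC2, was higher at all times. It had 7.15, 6.80 and 3.43 CPM in leaf-removed buds at 1 h, against 0.224, 0.468 and 0.666 CPM in intact buds (log2 3.66 ± 0.76 SE, adjusted p = 0.000814). Its levels at 3 h were 0.485, 3.32 and 4.72 CPM in leaf-removed buds, against 0.220, 0.263 and 0.290 CPM in intact buds (log2 3.43 ± 0.79 SE, adjusted p = 0.00328), the low value again in library b. At 6 h the log2 fold change was 2.36 ± 0.74 SE (adjusted p = 0.0214), a call that ended without intact 6 h d (log2 1.85) or leaf-removed 6 h b (log2 2.04), with adjusted p up to 0.126 over 29 alternatives.

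A wider list was taken by annotation from families that hold organ boundary and meristem genes (knotted-like, LATERAL ORGAN BOUNDARIES and LSH families). It also took in matches to KNAT3, KNAT7, LBD37 and LBD41, so not every listed gene need act at a boundary or meristem. The list had 46 tested genes. Of these, 8 rose and 14 fell at 1 h, 3 rose and 4 fell at 3 h, and 1 rose and 9 fell at 6 h. Its median log2 fold change was -0.66, -0.14 and -0.31. Beside this list, 24.8% of all 21852 tested genes rose and 24.1% fell at 1 h, and 17.8% rose and 16.2% fell at 3 h. At 6 h 3943 of all tested genes rose and 3478 fell. The difference between the list and all genes was not tested.

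Members matched to factors of organelle and protein stress included the most abundant one, and most of their changes were below 2-fold. Of 7 tested, 4 rose and 2 fell at 1 h, 2 rose at 3 h, and 1 fell at 6 h. Those called made up 85.7%, 28.6% and 14.3%, beside 48.9%, 34.0% and 34.0% of all genes. ANAC103 (Sobic.009G143700) had 1024, 999 and 1243 CPM in leaf-removed buds at 1 h, against 709.7, 809.6 and 742 CPM in intact buds (log2 0.53 ± 0.15 SE, adjusted p = 0.00789). The values at 3 h were 776, 759 and 778 CPM in leaf-removed buds, against 578, 577 and 595 CPM in intact buds (log2 0.40 ± 0.15 SE, adjusted p = 0.0483), and at 6 h it was not called (log2 -0.40 ± 0.15 SE, adjusted p = 0.0521). Library totals, the intron share as a covariate and leaving out intact 6 h c each gave a call at 6 h. The 1 h and 3 h calls both ended under library totals (log2 0.30 and 0.28). The 1 h call also ended without intact 1 h b or d or leaf-removed 1 h d (log2 0.34 without the last, adjusted p up to 0.139), and the 3 h call when any 1 of 12 libraries was left out (adjusted p up to 0.207), over 30 alternatives each.

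ANAC014 (Sobic.007G047700), matched to a membrane-tethered factor, had 165, 175 and 159 CPM in leaf-removed buds at 1 h, against 105, 119 and 121 CPM in intact buds (log2 0.53 ± 0.10 SE, adjusted p = 0.000258). Its levels at 6 h were 109, 90.0 and 97.2 CPM in leaf-removed buds, against 136, 123 and 129 CPM in intact buds (log2 -0.39 ± 0.10 SE, adjusted p = 0.00524). It rose at 1 h and fell at 6 h, without overlap at either time. ANAC017 (Sobic.002G251700), matched to the factor that carries mitochondrial stress signals to the nucleus, had 45.1, 48.7 and 55.2 CPM in leaf-removed buds at 1 h, against 18.04, 25.2 and 24.0 CPM in intact buds (log2 1.15 ± 0.24 SE, adjusted p = 0.000795). It was not called later (log2 0.23 and -0.02, adjusted p = 0.497 and 0.964). AOX1A, the mitochondrial alternative oxidase, is a known target of ANAC017 in Arabidopsis, and 2 tested genes match it. The abundant one (Sobic.004G270500) averaged 108 CPM in leaf-removed buds and 79.2 CPM in intact buds at 1 h without a call (log2 0.44 ± 0.26 SE, adjusted p = 0.17), and was called higher at 3 h (log2 0.88 ± 0.26 SE, adjusted p = 0.0157) and 6 h (log2 0.72 ± 0.26 SE, adjusted p = 0.0417). The scarce one (Sobic.006G202500), at a mean of 3.00 CPM in leaf-removed buds and 0.486 CPM in intact buds at 1 h, was called higher at all 3 times.

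ANAC078 (Sobic.004G350300), matched to a factor that renews the proteasome under stress, had 158, 153 and 144 CPM in leaf-removed buds at 1 h, against 90.3, 85.6 and 90.3 CPM in intact buds (log2 0.78 ± 0.10 SE, adjusted p = 1.49e-05), and was still higher at 3 h (log2 0.43 ± 0.10 SE, adjusted p = 0.00422). The second ANAC078 match (Sobic.007G166100) was abundant too, at 69.2, 72.5 and 81.3 CPM in leaf-removed buds and 74.2, 84.5 and 80.3 CPM in intact buds at 1 h, and was called at no time. NTL9 (Sobic.010G000100), matched to a membrane-tethered factor that binds calmodulin, fell at 1 h with 7.47, 9.84 and 9.30 CPM in leaf-removed buds, against 14.9, 15.0 and 13.7 CPM in intact buds (log2 -0.71 ± 0.16 SE, adjusted p = 0.00128). Of its reads 77.1% were unique. VNI1 (Sobic.006G281900), matched to a factor that relays ribosomal stress, fell at 1 h, with 54.5, 54.3 and 62.8 CPM in leaf-removed buds, against 81.9, 69.9 and 79.6 CPM in intact buds (log2 -0.43 ± 0.10 SE, adjusted p = 0.00268). With the 5 libraries left out it was higher at 3 h and 6 h (log2 0.22 ± 0.08 and 0.29 ± 0.09 SE, adjusted p = 0.0433 and 0.0213).

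SOG1 is the master switch of the DNA damage response in Arabidopsis. SOG1 (Sobic.010G111800) had 66.3, 69.7 and 73.5 CPM in leaf-removed buds at 1 h, against 58.6, 79.6 and 72.6 CPM in intact buds, with overlap and no call (log2 -0.01, adjusted p = 0.962). Its levels at 3 h were 31.1, 32.7 and 25.3 CPM in leaf-removed buds, against 85.2, 67.7 and 89.2 CPM in intact buds, and fell to 36.8% of the intact level (log2 -1.44 ± 0.14 SE, adjusted p = 1.19e-06). The values at 6 h were 34.7, 33.8 and 38.3 CPM in leaf-removed buds, against 82.7, 91.4 and 96.9 CPM in intact buds, or 39.4% of the intact level (log2 -1.34 ± 0.14 SE, adjusted p = 3.29e-06). The groups lay wide apart at both later times. The effect at 3 h differed from that at 1 h (log2 difference -1.43 ± 0.19 SE, adjusted p = 5.17e-05), as did that at 6 h (-1.33 ± 0.19 SE, adjusted p = 5.40e-05), so that the fall came after 1 h. In the fit without the 5 libraries the log2 fold changes were 0.05, -1.48 and -1.34 at the 3 times. A second match (Sobic.004G201600) was not called at any time with all libraries (adjusted p = 0.095, 0.998 and 0.0652), while DESeq2 and limma voom called it at 6 h. It differed among the 3 times in intact buds (adjusted p = 0.0422). Its effect at 6 h was called higher than that at 1 h, with log2 differences from 1.01 to 1.54 over 29 alternatives. That call was lost in 2 of them, among them the fit without the 5 libraries. The third SOG1 match (Sobic.006G120400) and the ANAC085 match (Sobic.006G120301), a relative that acts downstream of SOG1 in Arabidopsis, had under 0.5 CPM in every library and were called at no time with all libraries. Leaving out intact 1 h b gave a call for that SOG1 match at 1 h (adjusted p = 0.0223), where the remaining intact libraries held no read.

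The tested members without an assigned role numbered 16, of which 3 rose and 3 fell at 1 h, 1 rose and 2 fell at 3 h, and 1 rose and 3 fell at 6 h. Those called made up 37.5%, 18.75% and 25%, below the 48.9%, 34.0% and 34.0% of all genes. ANAC025 (Sobic.008G021800), matched to a gene known from the tapetum of the Arabidopsis anther, was the second most abundant member by RPKM. It had 577, 763 and 517 CPM in leaf-removed buds at 1 h, against 102, 114 and 113 CPM in intact buds, and rose 5.66-fold (log2 2.50 ± 0.23 SE, adjusted p = 3.26e-07). The values at 3 h were 70.0, 105 and 126 CPM in leaf-removed buds, against 128, 78.0 and 122 CPM in intact buds (log2 -0.12 ± 0.22 SE, adjusted p = 0.715). The groups lay wholly apart at 1 h and mixed at 3 h, and the effect at 3 h was lower than that at 1 h by -2.62 ± 0.32 on the log2 scale (adjusted p = 1.92e-05). Its levels at 6 h were 151, 149 and 177 CPM in leaf-removed buds, against 101, 129 and 87.8 CPM in intact buds, without overlap and without a call (log2 0.58 ± 0.22 SE, adjusted p = 0.0512). DESeq2, limma voom and the fit with a replicate block did call it at 6 h. Library totals and the fit without the 5 libraries did not.

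A second ANAC025 match (Sobic.002G420700) went the other way and was lower at all 3 times, at 0.550, 0.579 and 0.221 CPM in leaf-removed buds at 1 h, against 1.47, 1.13 and 0.999 CPM in intact buds. Its log2 fold changes were -1.42 ± 0.54, -2.12 ± 0.57 and -2.18 ± 0.56 SE (adjusted p = 0.0398, 0.00898 and 0.00652). The 1 h call ended when any 1 of 5 libraries was left out and without the 5 deviating ones (log2 -1.13), and without leaf-removed 1 h d the value was -1.17, with adjusted p up to 0.116 over 29 alternatives. ANAC028 (Sobic.001G529200) was higher at all times by close to 2-fold, with 4.44, 6.66 and 4.35 CPM in leaf-removed buds at 1 h, against 2.95, 1.98 and 2.66 CPM in intact buds, and log2 fold changes of 1.02 ± 0.25, 1.17 ± 0.25 and 1.00 ± 0.25 SE (adjusted p = 0.00305, 0.00216 and 0.00599). The other ANAC028 match (Sobic.003G119800) was lower at 6 h, with 21.9, 16.3 and 20.9 CPM in leaf-removed buds, against 45.1, 19.8 and 49.4 CPM in intact buds (log2 -0.95 ± 0.26 SE, adjusted p = 0.00996). The groups overlapped, and the call ended without intact 6 h d (log2 -0.67) or leaf-removed 6 h b (log2 -0.83), with adjusted p up to 0.072 over 30 alternatives.

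Among 4 tested matches to ANAC041, Sobic.002G259600 fell at 1 h, with 0.904, 0.965 and 0.996 CPM in leaf-removed buds, against 3.81, 2.18 and 4.03 CPM in intact buds (log2 -1.80 ± 0.34 SE, adjusted p = 0.000366). Sobic.007G190333 fell at 3 h (log2 -0.72 ± 0.20 SE, adjusted p = 0.00925) and 6 h (log2 -0.80 ± 0.20 SE, adjusted p = 0.00533), with 5.72, 7.08 and 8.16 CPM in leaf-removed buds at 3 h, against 10.5, 11.3 and 12.8 CPM in intact buds. Of the remaining calls, 3 did not outlast the removal of single libraries. ANAC058 (Sobic.001G163800) was higher at 1 h (log2 2.58 ± 0.95 SE, adjusted p = 0.034), a call that leaving out any 1 of the 6 libraries of that time ended, with a log2 fold change of 2.14 without leaf-removed 1 h c and adjusted p up to 0.124 over 28 alternatives. ANAC094 (Sobic.004G237900) was lower at 1 h (log2 -1.47 ± 0.55 SE, adjusted p = 0.0347). Leaf-removed buds had 1.57, 1.06 and 1.25 CPM in that gene, against 2.21, 7.30 and 1.30 CPM in intact buds, and without the high intact library c the value was -0.44. That call also ended without leaf-removed 1 h c (log2 -1.43) or d (log2 -1.53), with adjusted p up to 0.493 over 30 alternatives. SMB (Sobic.004G112200), matched to a factor of root cap cells, was lower at 3 h (log2 -3.00 ± 1.12 SE, adjusted p = 0.0494), a call lost in 21 of 28 alternatives and ended by leaving out any 1 of 15 libraries, with a value of -2.15 without intact 3 h a and adjusted p up to 0.45. The groups of that gene overlapped.

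**Figure D5:**
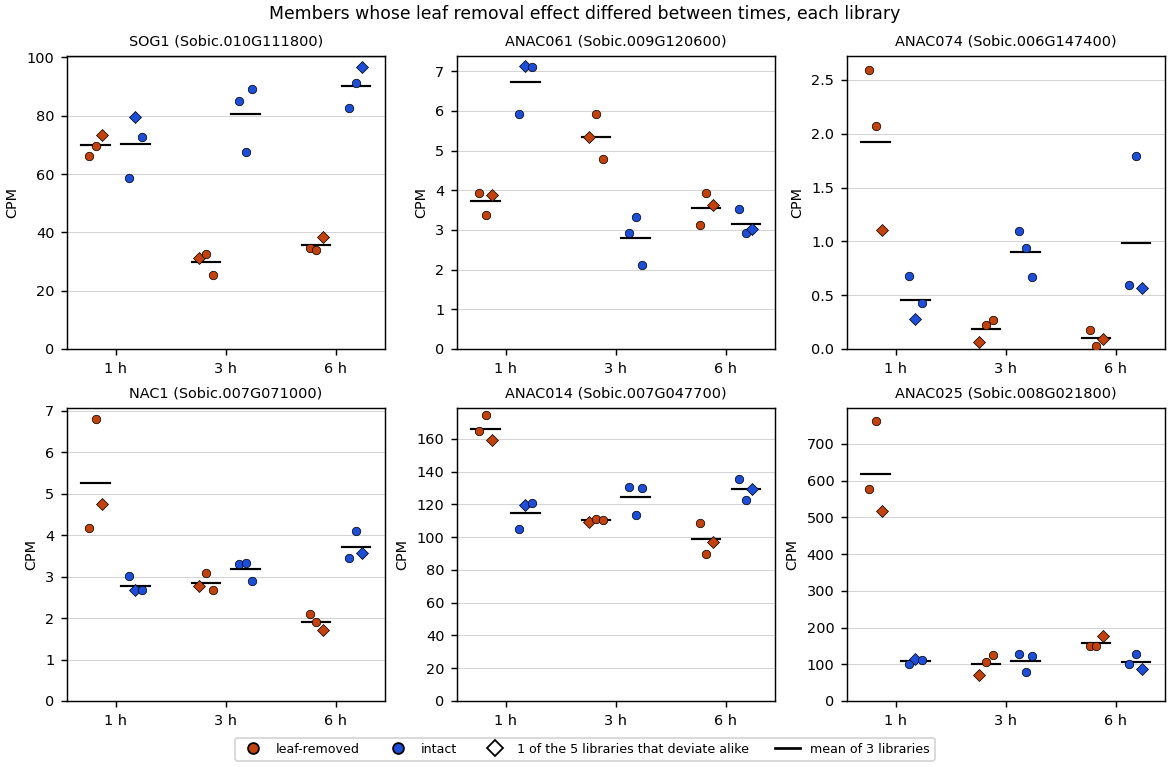
CPM in each library for 6 members whose leaf removal effect differed between times by the interaction test, at 1, 3 and 6 h, leaf-removed left of intact at each time, with bars at the mean of 3 libraries and diamonds for the 5 libraries that deviate alike. SOG1 splits after 1 h, ANAC061 and ANAC074 change sides between 1 h and 3 h, NAC1 and ANAC014 change sides by 6 h, and ANAC025 is raised at 1 h, at 517 to 763 CPM against 102 to 114 CPM in intact buds.

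Over the 3 times, 47 of the 74 tested members were called at least once and 27 never. Of these 47, 18 were called at 1 h only, and 13 that were higher at 1 h were not called later. Members higher at all times were 6, namely ATAF1 (Sobic.009G142200), ANAC087 (Sobic.005G018700 and Sobic.003G105600), ANAC100, VND4 (Sobic.006G160900) and ANAC028 (Sobic.001G529200). The 2 lower at all times were ANAC074 (Sobic.004G219500) and ANAC025 (Sobic.002G420700). The 4 that were higher at 1 h and lower at 6 h were ATAF2 (Sobic.003G334600), NAC1 (Sobic.007G071000), ANAC014 and ANAC074 (Sobic.006G147400).

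The difference between times was tested directly. Between 1 h and 3 h the effect differed for 19 members, 4 with a higher and 15 with a lower effect at 3 h, or 25.7% of those tested beside 26.6% of all genes. Between 1 h and 6 h it differed for 24, 4 with a higher and 20 with a lower effect at 6 h, or 32.4% beside 38.1%. In the fit without the 5 libraries it differed for 26, beside 44.2% of all genes. The totals are thus near or below the background, and the direction was mostly downward, where all genes split into 13.4% higher and 13.2% lower and into 18.6% higher and 19.5% lower. Of the 12 tested stress members 8 had a lower effect at 6 h than at 1 h and none a higher one. Between 3 h and 6 h no member was called, beside 3.25% of all genes (2.35% higher and 0.902% lower at 6 h). At an unadjusted p under 0.05 there were 8 members, 10.8% of those tested beside 16.0% of all genes, DESeq2 called 1 and limma voom 0. Without the 5 libraries 10 members were called (17.3% of all genes), among them ATAF2 (Sobic.001G040200, log2 difference -1.64 ± 0.47 SE, adjusted p = 0.0297) and ANAC103 (-0.69 ± 0.21 SE, adjusted p = 0.0366). In intact buds 2 members differed among the 3 times, ANAC061 and SOG1 (Sobic.004G201600), beside 9.72% of all genes. The times share no library, but the effects at 3 h and 6 h are each set against the same effect at 1 h.

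Sorghum genes that share an Arabidopsis match were set side by side. There were 22 Arabidopsis genes with 2 or more tested sorghum matches, 55 members in all. At 1 h 3 of the 22 had all their matches called in the same direction, 9 had some called in 1 direction, 7 had none called, and 3 had matches called in both directions, which were ANAC025, ANAC074 and XND1. At 3 h only ANAC074 and at 6 h only ANAC028 had calls in both directions among these 22.

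Reads in introns of the same libraries gave a second readout for 38 of the members, fitted on their own. The low-count filter acted on any group, so a member with intron reads only after leaf removal could enter. At 1 h 19 of the 38 were called, 15 higher and 4 lower (50.0%, beside 24.1% of the 14725 genes tested on introns), at 3 h 5 (beside 12.9%) and at 6 h 4 (beside 10.7%). Of the 26 members with an intron test whose exon reads were called at 1 h, 17 were called on introns too, 24 had the same sign, and none was called in the opposite direction. ATAF2 (Sobic.001G040200) had 302 intron reads in leaf-removed buds and 11 in intact buds at 1 h (log2 5.77 ± 0.71 SE, adjusted p = 3.10e-06). ATAF1 (Sobic.009G142200) had 263 intron reads in leaf-removed buds and 0 in intact buds at 1 h. CUC3 had 10 intron reads in leaf-removed buds and 97 in intact buds at 1 h (log2 -2.26 ± 0.63 SE, adjusted p = 0.0114). SOG1 (Sobic.010G111800) had 21 intron reads in leaf-removed buds and 34 in intact buds at 3 h and was not called on them (log2 -0.52 ± 0.66 SE, adjusted p = 0.668). The sign was that of its exon reads, and the difference between exon and intron values was not tested. The intron share itself averaged 3.86% in leaf-removed libraries and 5.33% in intact ones at 1 h.

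The authors' deposited table, which tested all 34211 genes, called 14 members higher and none lower at 1 h (9.96% of all genes called), 4 higher and 1 lower at 3 h (5.21%) and 2 lower at 6 h (5.25%). All 21 calls were also made from the counts, in the same direction. The reverse did not hold, as 26 of the 40 calls from the counts at 1 h were not in the authors' table. Nor were 16 of the 21 at 3 h and 18 of the 20 at 6 h. The authors' deposited table gave fold changes of 173 for ATAF1 (Sobic.009G142200), 59.9 for ATAF2 (Sobic.001G040200) and 32.5 for ANAC032 at 1 h, and of -2.71 and -2.52 for SOG1 (Sobic.010G111800) at 3 h and 6 h, where a negative value means lower in leaf-removed buds.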

How the data were processed

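RNA from 18 pools of sorghum axillary buds was sequenced as 125-base reads of TruSeq libraries on an Illumina HiSeq, per the labels' protocols. The authors deposited, per the file headers, whole-number counts of total and unique exon reads, of gene reads and of intron reads, RPKM values and exon length for each gene and library. The deposited table also holds a signed fold change, here called a score, and an FDR-corrected p-value from the authors' own test (EDGE with tagwise dispersions), per the file headers. The aligner, genome build, annotation version and counting strand are not given in the sources used here, so reads of overlapping or antisense genes cannot be told apart.

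Total exon counts were tested with edgeR 4.0.16 in R 4.3.3 (quasi-likelihood F test, TMM factors, default low-count filter, all 6 groups in 1 fit without covariates, Benjamini-Hochberg adjustment, 12 residual degrees of freedom). CPM used TMM-scaled library sizes. SE is the log2 fold change divided by the root of F. Intron counts were fitted apart in the same way. limma 3.58.1, DESeq2 1.42.0, other scalings and filters, replicate blocks, an intron covariate, unique reads and left-out libraries were tried as alternatives. The fit was tested on simulated data. Tables and plots used Python 3.11.15 with pandas 2.3.3, numpy 2.4.6, scipy 1.17.1 and matplotlib 3.10.9.

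Members, roles and companion lists were chosen with earlier results of these data known, and 1 companion list is not reported here. Named genes are, per time, the 6 highest and 6 lowest called members whose lower group held 10 or more exon reads and whose higher group averaged 5 CPM or more, members on a list of known regulators, and the 4 with the smallest adjusted p per interaction. The other called members were named after their values were seen. Reads carry no molecular identifiers, so counting intervals cover counting error only.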

Additional observations from a re-analysis of the deposited data

Results flagged for a closer look

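The leaf removal effect differed between times by the interaction test of edgeR's quasi-likelihood fit for 19 members between 1 h and 3 h and for 24 between 1 h and 6 h. Between 1 h and 3 h, the log2 difference of the effects was -2.62 for ANAC025 (Sobic.008G021800), -1.434 for SOG1 (Sobic.010G111800) and -3.135 for NAP, all with the lower effect at 3 h. For ANAC061 it was 1.789, with the higher effect at 3 h. Between 1 h and 6 h it was -2.723 for ANAC047 (Sobic.003G409800), -4.835 for ATAF1 (Sobic.003G379700), -1.334 for SOG1 and -0.9195 for ANAC014, all with the lower effect at 6 h.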

How the results depend on the processing

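Of 7885 values of single members over the alternatives, 7291 kept their direction and side of the threshold, 251 were no longer called and 155 were newly called. The other 188 had the opposite sign, all in members that were called neither as reported nor under that alternative. Leaving out 1 library at a time gave 26 to 31 members higher and 5 to 12 lower at 1 h (9360 to 11591 genes called), 11 to 20 and 4 to 7 at 3 h (5552 to 7848 genes), and 7 to 15 and 9 to 13 at 6 h (5865 to 8120 genes). For the difference between effects it gave 14 to 21 members between 1 h and 3 h (4734 to 6173 genes), 0 to 2 between 3 h and 6 h (447 to 1073 genes) and 22 to 27 between 1 h and 6 h (7232 to 9064 genes), and for intact buds over time 1 to 4 members (1235 to 2703 genes). Single libraries that moved a count by over 1.5 times were leaf-removed 1 h d (5 lower at 1 h without it) and leaf-removed 3 h b (15 higher at 6 h, and between 3 h and 6 h 2 members and 1073 genes, with 4 members over intact times). Between 3 h and 6 h, 1 member was called without intact 6 h c or leaf-removed 1 h d, and 447 to 464 genes without intact 3 h c, leaf-removed 3 h c or d, or leaf-removed 6 h b or d. Over intact times 1 member was called without intact 1 h b, 3 h b, 3 h c or 6 h d or leaf-removed 6 h a, b or d, and 1235 genes without intact 1 h c. Asking for a fold of at least 2 left 5 members lower at 1 h, 5 lower at 6 h, and 5749 (1 h), 3334 (3 h) and 2990 (6 h) genes called. Library totals gave 17 members lower at 6 h and 1 over intact times. A cutoff of 1 CPM in 9 libraries gave 3 lower at 3 h and 1 between 3 h and 6 h. It called 31 members at 1 h, 16 at 3 h and 18 at 6 h, where 40, 21 and 20 were called as reported. Of the reported calls, 9, 7 and 6 were lost because the cutoff left those members untested. These losses are not among the 251 above.

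Without the 5 libraries there were 24 higher at 3 h, 10 members and 3809 genes between 3 h and 6 h, and 4 members and 4366 genes over intact times. The intron covariate gave 10 lower at 3 h, 16 higher at 6 h, 2 members and 1971 genes between 3 h and 6 h, and 6 members and 4651 genes over intact times. DESeq2 gave 1 member and 1354 genes between 3 h and 6 h, and 8 members and 3501 genes over intact times. DESeq2 size factors gave 1 between 3 h and 6 h, limma voom 4 over intact times, and no filter 1. The cause was not tested.

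Replicate letters were not taken as pairs, since deviations of same-lettered libraries correlated from -0.405 to 0.528. With the letter as a replicate block, 448 genes differed between 3 h and 6 h, and 1 member and 1198 genes over intact times. With the replicate block within each time, 3 members were higher and 2 lower at 3 h (2596 genes), and 4 and 2 at 6 h (2454 genes). That block left 2750, 0 and 4448 genes for the differences between 1 h and 3 h, 3 h and 6 h, and 1 h and 6 h, and 0 members and 31 genes over intact times. Depth limits members under about 1 CPM, whose calls rest on few reads.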

Other observations

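Genes of chlorophyll breakdown and dehydration-linked proteolysis, from the senescence list that accompanied the NAC members, were among its clearest changes at 1 h. NYE1 (Sobic.002G274800), which removes magnesium from chlorophyll, averaged 17.8 CPM in leaf-removed buds and 0.804 CPM in intact buds (log2 4.46 ± 0.46 SE, adjusted p = 1.11e-06 by edgeR). PAO (Sobic.001G504900), which opens the chlorophyll ring, averaged 31.7 CPM in leaf-removed buds and 13.7 CPM in intact buds (log2 1.205 ± 0.16 SE, adjusted p = 1.06e-05). The chloroplast protease subunit CLPD, also called ERD1 (Sobic.004G162400), averaged 109 CPM in leaf-removed buds and 16.8 CPM in intact buds (log2 2.696 ± 0.16 SE, adjusted p = 3.01e-09). The genes named here were picked with their values in view.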
